A study of Mus musculus with 9 samples.

Results

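The miR-297, miR-466, miR-467 and miR-669 families were followed in cultured mouse hippocampal neurons after 2 kinds of glutamate receptor stimulation. Members were taken by name: every mouse miRNA on the array named miR-297, miR-466, miR-467 or miR-669, with any letter, arm or star suffix, which gave 39 of the 650 miRNAs on the array (3 of miR-297, 14 of miR-466, 10 of miR-467 and 12 of miR-669), read by 106 of its 1857 probes. Primary hippocampal neurons of C57BL/6 mice, prepared on postnatal day 1 and kept for 10 days in vitro, were left untreated (control), received 20 µM NMDA for 4 h, or received 50 µM bicuculline for 4 h. Each group held 3 cultures from independent cell preparations, and total RNA of each culture was hybridised to 1 one-colour Agilent miRNA array, 9 arrays in all. The labels give 4 h for both drugs, while the methods describe for NMDA a short exposure that was washed out before the incubation. Bath-applied NMDA reaches synaptic and extrasynaptic NMDA receptors together, whereas bicuculline blocks GABA-A receptors and drives synaptic firing of the network.

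A miRNA is cut from a hairpin precursor, first by Drosha and then by Dicer, and either arm of the hairpin (5p or 3p) can be loaded onto an Argonaute protein, where bases 2 to 8, the seed, choose the target mRNAs. In older names a star marks the arm that was found less often. The miR-297, miR-466, miR-467 and miR-669 families are rodent miRNAs rich in alternating cytosine-adenine or uracil-guanine repeats. Most of their genes lie in tandem within the imprinted gene Sfmbt2, a locus known for its activity in placenta and embryonic stem cells.

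The family name does not place every member in that locus. In the RefSeq annotation of the mouse (assembly GRCm38.p6), 72 of 82 genes of these families lay within Sfmbt2 and 10 lay elsewhere. Of the 39 members, 31 were counted within Sfmbt2, 6 outside it, and both arms of miR-466f with 3 copies inside and 1 copy outside. The 31 include miR-297a*, although the annotation also lists a copy outside Sfmbt2, Mir297-1, also named Mir297a-1. Mir467f lay within the span of Fxr2, Mir466i within that of Cdk13 and Mir669n within that of Slc30a7, while the genes of miR-466g, miR-669f and miR-466c lay within Sfmbt2.

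Mature sequences from RefSeq (GRCm38.p6) were matched for 6 of the 39 members. These 6 are the members counted outside Sfmbt2, so no sequence of a member within that gene is shown. The sequences are given because the length of their repeats can be read beside the changes below, with the seed in capitals.

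miR-467f, chr11:69635419-69635439, minus strand: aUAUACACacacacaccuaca

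miR-466i, listed as the 3p arm, chr13:17747552-17747573, plus strand: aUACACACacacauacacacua

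miR-467g, chr5:34732872-34732892, minus strand: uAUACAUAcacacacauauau

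miR-669n, chr3:115979905-115979924, plus strand: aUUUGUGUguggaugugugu

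miR-466k, chr3:85467396-85467418, plus strand: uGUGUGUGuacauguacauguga

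miR-466j, chr10:60960802-60960824, plus strand: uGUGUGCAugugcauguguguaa

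The 6 sequences have 6 different seeds. The longest run of alternating cytosine and adenine was 12 bases in miR-467f, 11 in miR-466i and 9 in miR-467g, and the longest run of alternating uracil and guanine was 9 bases in miR-466k, 8 in miR-669n and 7 in miR-466j. Each of the 6 held a repeat motif, which was ACACAC or its shifted form CACACA, or for the complementary repeat GUGUGU or its shifted form UGUGUG. Motifs were searched on the miRNA strand, and overlapping matches counted once per miRNA. Of 1679 mature mouse miRNAs in the RefSeq table, 49 (2.92%) held such a motif, as did 14 of the 164 array miRNAs (8.54%) that could be matched to a sequence. An array name without an arm was matched only where RefSeq has the same name, apart from miR-466i, which the study's list of array miRNAs names as the 3p arm. Near-identical repeats let a probe bind more than its own member, so signals of members with like sequences may not be separate measurements, and this was not tested.

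All 5 neuronal markers (miR-124, miR-9, miR-128, miR-137 and miR-138) were well above background on all 9 arrays, with summed signals of 3304% to 3375% of the array scale in control, 3061% to 3329% after NMDA and 3013% to 3302% after bicuculline. The array scale is an array's 75th percentile over a fixed set of 265 probes, those above background on every array, and a probe counted as well above background where the scanner software flagged at least 50% of its spots so. Of 2 oligodendrocyte markers, miR-338-3p was well above background on all arrays, and the list's sum was 31.5% to 42.2% in control, 30.5% to 41.8% after NMDA and 30.5% to 35.0% after bicuculline. Of 5 vessel and muscle markers, miR-126-3p and miR-1 were detected on at least 1 array, with list sums of 20.9% to 24.5%, 20.6% to 22.8% and 18.6% to 22.0%. The ranges of NMDA and control overlapped for every list. None of 5 markers of microglia and blood cells was well above background on any array. Of 7 markers of embryonic stem and trophoblast cells, 6 were well above background on no array, and miR-290-5p was on at least 1 array. The sum over that list was 1.42% to 11.3% in control, 3.47% to 9.15% after NMDA and 1.75% to 2.51% after bicuculline. In RNA of a whole culture, fewer cells of a type and less RNA per cell cannot be told apart. The number of miRNAs well above background was 162 to 205 per array in control, 181 to 221 after NMDA and 166 to 206 after bicuculline, and its part in the results was not tested. The arrays lay on 2 slides, each with arrays of all 3 groups: slide 1 held control 1 and 2, NMDA 1 and 2 and bicuculline 1, and slide 2 held the rest.

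In untreated neurons the families were at or below the limit of the array. No member was well above background on any control array. After NMDA, 7 members were well above background on at least 1 array: miR-467f, miR-466i and miR-466f-3p on 3 of 3, miR-466g, miR-669f and miR-669n on 2 of 3, and miR-466c-5p on 1 of 3. After bicuculline this held for miR-467f alone, on 1 of 3 arrays. The remaining 32 members were well above background on none of the 9 arrays, and their signals ran from -1.84% to 2.18% of the array scale in control, -1.91% to 3.26% after NMDA and -2.31% to 3.54% after bicuculline, with medians of 0.0803%, 0.440% and -0.0416%. Values below 0 arise because the scanner software subtracts a background.

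miR-467f, from a gene outside Sfmbt2, had the largest difference from control among the members tested. Its brightest probe read 2.97%, 6.09% and 3.98% of the array scale in control 1 to 3, 28.0%, 41.6% and 49.1% in NMDA 1 to 3, and 3.76%, 4.39% and 4.73% in bicuculline 1 to 3. All 3 NMDA arrays lay above all control and bicuculline arrays, and the bicuculline arrays lay within the control range. The group means were 4.35% ± 1.59 in control, 39.6% ± 10.7 after NMDA and 4.29% ± 0.489 after bicuculline (SD, n = 3). Because the control signals were not well above background, the increase has only a lower bound: NMDA was at least 5.62-fold higher than control. Such a bound sets the mean log2 signal of the NMDA arrays against the lowest signal well above background on each control array, or the probe's own signal if that was higher. With signals under 7.94% of the scale raised to that floor, limma gave a difference of 2.28 on the log2 scale (SE 0.19, adjusted p = 1.48e-04). All 3 control arrays were then at the floor, so this SE and p hold no spread of the control signals. The same holds for miR-466f-3p and miR-466i below. Within slide 1 the NMDA mean exceeded the control mean by 30.3 percentage points of the array scale, and within slide 2 by 45.2.

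The 3p arm of miR-466f followed the same order. miR-466f-3p read 1.40%, 3.26% and 2.61% in control, 16.2%, 25.3% and 27.6% after NMDA, and 2.36%, 1.68% and 3.80% after bicuculline. No NMDA array overlapped with another group. NMDA was at least 3.27-fold higher than control and at least 3.38-fold higher than bicuculline, and the floored log2 difference from control was 1.50 (limma, SE 0.19, adjusted p = 0.00106).

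miR-466i, whose gene lies within Cdk13, read 1.27%, 4.41% and 2.14% in control, 15.7%, 21.6% and 24.1% after NMDA, and 1.75%, 1.80% and 1.96% after bicuculline. Again the NMDA arrays stood above all others. The increase was at least 2.94-fold over control and at least 3.04-fold over bicuculline, with a floored log2 difference from control of 1.35 (limma, SE 0.15, adjusted p = 5.90e-04).

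**Figure D1:**
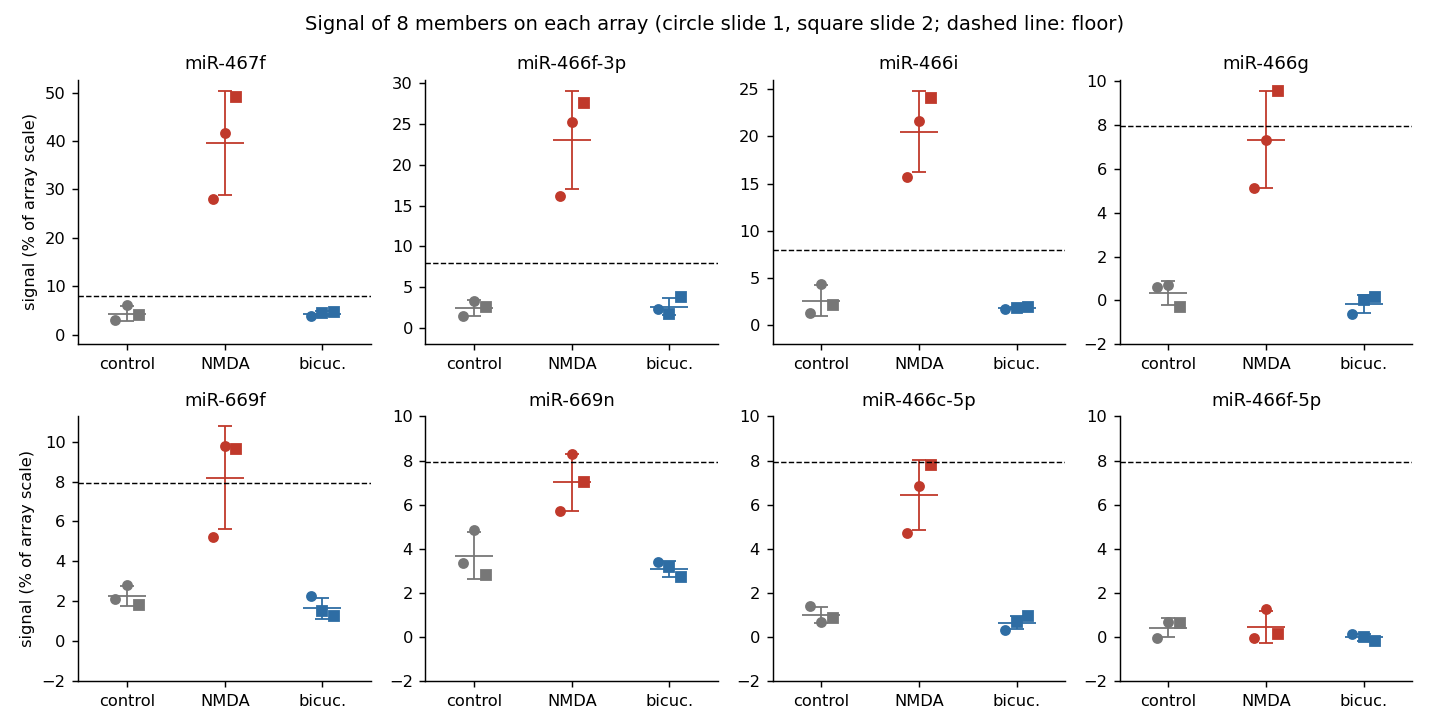
Signal of the brightest probe of 8 members on each array, as a percentage of the array scale, for control, NMDA and bicuculline (bicuc.); points are arrays (circles slide 1, squares slide 2), horizontal bars means, error bars SD over 3 arrays, and the dashed line the floor of 7.94%. The NMDA arrays lie above the control and bicuculline arrays in every panel except that of miR-466f-5p.

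The other 4 detected members were near the detection limit even after NMDA. miR-466g, from within Sfmbt2, read 0.613%, 0.683% and -0.319% in control, 5.13%, 7.32% and 9.56% after NMDA, and -0.625%, 0.00673% and 0.150% after bicuculline. miR-669f, also from within Sfmbt2, read 2.12%, 2.82% and 1.83% in control, 5.22%, 9.76% and 9.62% after NMDA, and 2.24%, 1.49% and 1.23% after bicuculline. In both, NMDA 2 and NMDA 3 were the arrays well above background, and all 3 NMDA arrays lay above the other 6.

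miR-669n, from within Slc30a7, read 3.36%, 4.87% and 2.80% in control, 5.72%, 8.30% and 7.01% after NMDA, and 3.41%, 3.18% and 2.70% after bicuculline. miR-466c-5p read 1.41%, 0.687% and 0.856% in control, 4.70%, 6.86% and 7.80% after NMDA, and 0.329%, 0.683% and 0.926% after bicuculline. For both, all 3 NMDA arrays lay above the other 6, while control and bicuculline overlapped. The ratio over control, formed as for miR-467f, was 1.03 for miR-466g, 1.15 for miR-669f and 1.01 for miR-669n. It averaged all 3 NMDA arrays, although only 2 of 3 were well above background and NMDA 1 was not. These ratios are therefore no lower bounds, and no fold could be bounded for miR-466c-5p either.

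The comparison of NMDA with control addresses which miRNAs change with bath application of the agonist. To be tested, a miRNA had to be detected on every array of NMDA or of control, which 181 were, and 15 of them (8.29%) were higher at an adjusted p under 0.05 (limma, Benjamini-Hochberg over all 181). Of the members, 3 of 39 passed that filter, and miR-467f, miR-466i and miR-466f-3p were all called higher. These 3 passed the filter through the NMDA arrays alone, so their number is a description and not a measure of how often the families changed. The median log2 difference over all 181 was -0.01. With the mean of all probes of a miRNA in place of the brightest, miR-466f-3p and miR-466i were not called (limma, adjusted p = 0.636 and 0.0506), and with the total per miRNA from the scanner software miR-467f was not (limma, adjusted p = 0.991).

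Over all 39 members, without any filter, the order of the arrays could still be compared. In 10 members all 3 NMDA arrays lay above all 3 control arrays, and in 0 they lay below, while over the 650 miRNAs 68 (10.5%) lay above and 26 (4%) below. The 10 were the 7 detected members with miR-669a, miR-669h-3p and miR-669l, whose signals stayed under the limit on all arrays. By family they were 0 of 3 in miR-297, 4 of 14 in miR-466, 1 of 10 in miR-467 and 5 of 12 in miR-669. By locus they were 6 of the 31 members counted within Sfmbt2, 3 of the 6 outside it and 1 of the 2 arms of miR-466f.

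The deposited normalized table, in which dim miRNAs keep a value, allowed a test of all 650 miRNAs. For miR-467f, miR-466i and miR-466f-3p its log2 differences are smaller than those of the scanner signals. Dim signals there stay close to a common level, with array medians of 7.06 to 7.08, and the cause of the smaller differences was not tested. In limma 24 of the 650 (3.69%) were higher after NMDA at an adjusted p under 0.05, among them 7 of the 39 members, and no member was lower. They were the same 7 that were well above background on an NMDA array. The differences were 0.84 for miR-467f (SE 0.10, adjusted p = 0.00255), 0.59 for miR-466i (SE 0.06, adjusted p = 0.00156), 0.36 for miR-466f-3p (SE 0.06, adjusted p = 0.0168), 0.29 for miR-669f (SE 0.05, adjusted p = 0.0143), 0.28 for miR-466g (SE 0.06, adjusted p = 0.0484), 0.23 for miR-466c-5p (SE 0.04, adjusted p = 0.0168) and 0.17 for miR-669n (SE 0.04, adjusted p = 0.0495). The median over the 39 members was 0.02, with a range of -0.06 to 0.84, and over all 650 miRNAs -0.02. Calls for the dimmer members depended on the array left out. Without control 1, control 2 or NMDA 2, 2 members remained called (miR-467f and miR-466i). Without NMDA 3, 4 remained, without control 3, 5, and without NMDA 1, 6. Each of these fits also had fewer arrays, and the part of this in the lost calls was not tested. With the methods' t-test in place of limma, 0 of the 39 passed after Benjamini-Hochberg adjustment, and 12 had an unadjusted p under 0.05, all 12 higher after NMDA. Over all 650, 42 (6.46%) were higher and 47 (7.23%) lower at that unadjusted threshold. The methods' limit of a 20% increase was passed by 5 members and by 20 of all 650 (3.08%).

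**Figure D2:**
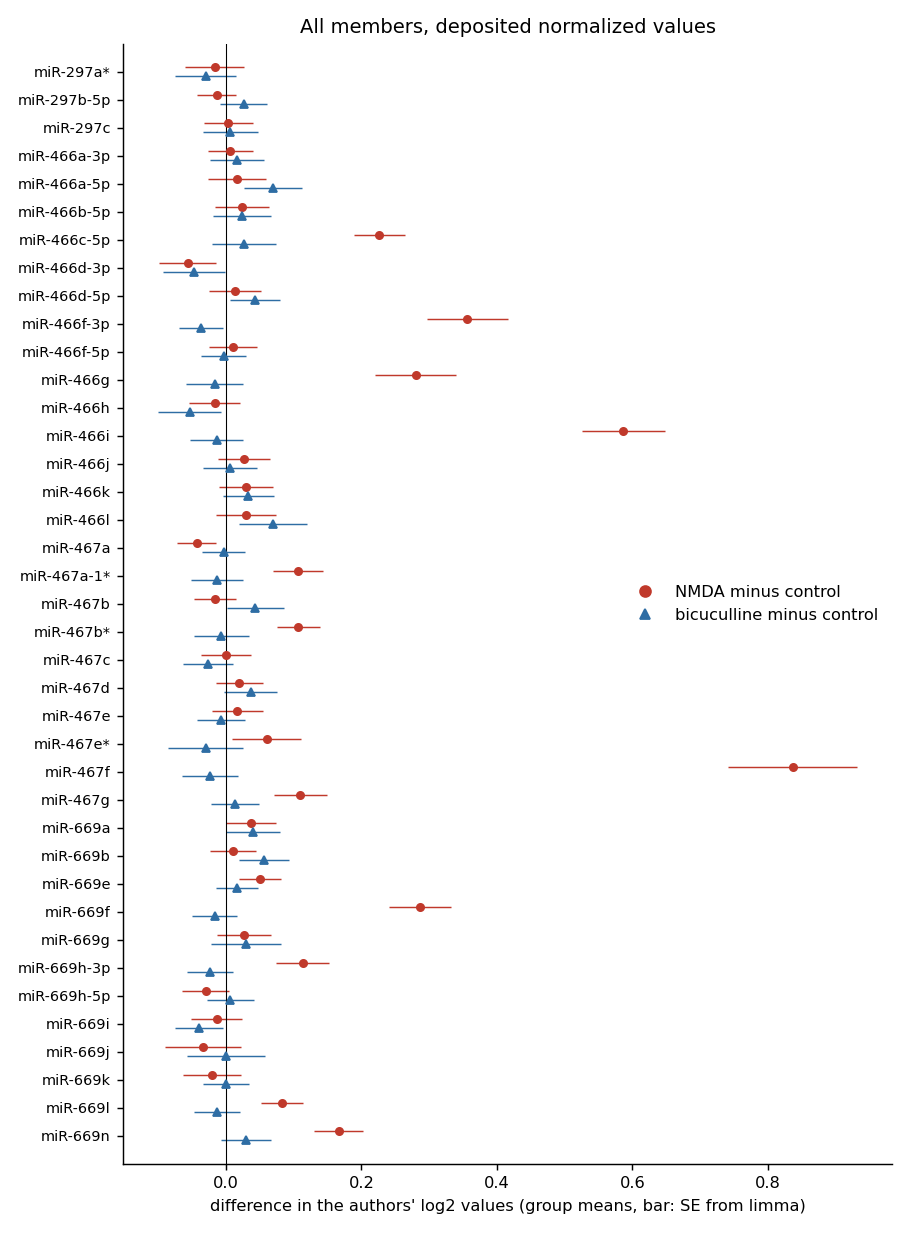
Difference in the deposited log2 values from control for all 39 members, after NMDA (circles) and after bicuculline (triangles); bars are standard errors from limma, n = 3 arrays a group. After NMDA the 7 called members run from miR-669n at 0.17 to miR-467f at 0.84. The uncalled miR-669h-3p, miR-467g, miR-467a-1* and miR-467b* lie close below miR-669n at 0.11. After bicuculline all members lie between -0.05 and 0.07.

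After bicuculline no member was called. None passed the detection filter against control, a comparison in which 1 of 161 miRNAs (0.621%) was higher. In the deposited table limma called 0 of the 39 members in either direction, and 0 had an unadjusted p under 0.05, by limma or by the methods' t-test. Over all 650, 1 (0.154%) was higher. The limit of a 20% increase was passed by 0 members and by 2 of all 650 (0.308%). The members' median difference from control was 0.00, with a range of -0.05 for miR-466h to 0.07 for miR-466a-5p and miR-466l. On the scanner signals 0 members had their lowest bicuculline array above their highest control array (over all 650, 9, or 1.38%), and 2 had the reverse order, miR-297b-5p and miR-669i (over all 650, 22, or 3.38%). Both of these were under the detection limit on every array.

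The difference between the treatments was tested directly, with the bicuculline arrays in place of the controls. Of 181 miRNAs tested, 15 (8.29%) were higher after NMDA than after bicuculline, and all 3 tested members were among them. As in the comparison with control, these 3 passed the filter through the NMDA arrays, so their count is a description. miR-467f was higher by 2.28 (limma, SE 0.19, adjusted p = 2.05e-04), miR-466f-3p by 1.50 (limma, SE 0.19, adjusted p = 0.00156) and miR-466i by 1.35 (limma, SE 0.16, adjusted p = 9.69e-04). These log2 differences equal those from control because every control and bicuculline array of the 3 members was at the floor. Their SE and p therefore hold no spread of the bicuculline signals. With the mean of all probes miR-466f-3p and miR-466i were not called (limma, adjusted p = 0.653 and 0.0546), and with the methods' t-test, adjusted over all miRNAs tested, miR-466f-3p was not (adjusted p = 0.0514). In the deposited values 23 of 650 (3.54%) were higher, with 5 members among them: miR-467f, miR-466i, miR-466f-3p, miR-669f and miR-466g. Without NMDA 2 or bicuculline 2, 2 members remained called, with the slide as a block 8 were called, and with the methods' t-test 0. All 3 NMDA arrays lay above all 3 bicuculline arrays in 14 members, against 79 of all 650 (12.2%).

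The probes of each detected member were then taken singly. Agilent arrays read a miRNA with probes of graded length, so the dimmer probes give further readings of the same RNA. miR-466f-3p had 4 probes, and after NMDA their means were 23.0%, 10.8%, 4.63% and 0.918% of the array scale, against 2.42%, 0.792%, 0.366% and -0.139% in control. In the 3 brightest, all NMDA arrays lay above all control arrays, and in the dimmest they overlapped. The 4 probes of miR-466g had NMDA means of 7.33%, 6.58%, 3.75% and 2.61% and control means of 0.326%, 0.307%, -0.118% and -0.818%, with no overlap in any of them. Both probes of miR-467f and both of miR-466i separated the groups as well. The dimmer of each pair had a mean of 19.4% after NMDA and 2.65% in control for miR-467f, and of 10.1% and 0.786% for miR-466i.

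Over all 39 members, all NMDA arrays lay above all control arrays in 31 of 106 probes (29.2%), against 181 of all 1857 probes of the array (9.75%). Of the 31 probes, 17 belonged to the 7 detected members, which have 18 probes and were detected through their NMDA arrays, so that share is a description and no support, and 14 to the other 32 members, which have 88 (15.9%). Probes of 1 miRNA share its RNA and are not replicates.

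**Figure D3:**
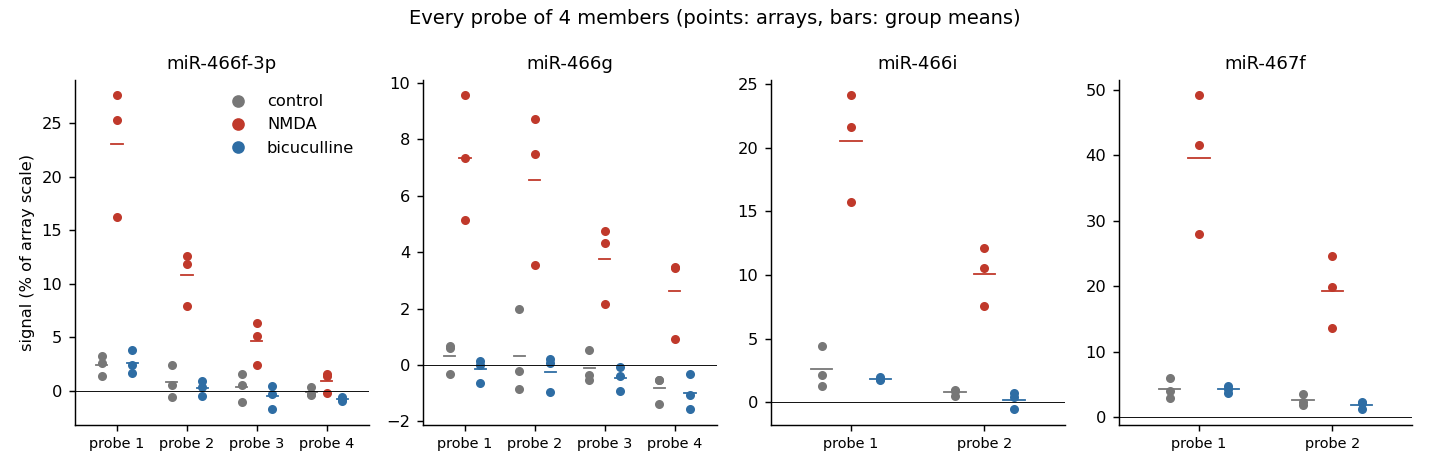
Signal of every probe of miR-466f-3p, miR-466g, miR-466i and miR-467f, as a percentage of the array scale, with probes ordered from the largest to the smallest difference between NMDA and control; points are arrays and short bars group means of 3 arrays. NMDA arrays stand above the control arrays in every probe shown except probe 4 of miR-466f-3p.

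Arms of a hairpin, paired by name, could be compared for 7 pairs. miR-466f was the pair with a detected arm. Its 5p arm read -0.0700%, 0.666% and 0.649% in control, -0.0547%, 1.29% and 0.130% after NMDA, and 0.118%, 0.0118% and -0.179% after bicuculline, so the groups overlapped and no array was well above background. The 3p minus 5p log2 difference was higher by 1.50 after NMDA on the floored scale, where the 5p arm was at the floor throughout. All 3 NMDA arrays lay above all 3 control arrays (p = 0.1 by an exact two-sided permutation test, which cannot go lower with 3 arrays a group; 0.7 after Benjamini-Hochberg adjustment over 7 pairs). Since the 5p arm gave no value above the floor, this difference restates that of miR-466f-3p. With the mean of all probes it was 0.35, and the arrays overlapped (p = 0.4, exact permutation). After bicuculline the same difference changed by 0 on this scale.

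On the floored scale the other 6 pairs were at the floor in both arms, so only the deposited table gave them values. There the 3p or star arm, relative to its partner, was higher on every NMDA array than on every control array for 4 hairpins, by 0.35 for miR-466f, 0.15 for miR-467a, 0.14 for miR-669h and 0.12 for miR-467b (each two-sided exact permutation p = 0.1, 0.175 after adjustment over 7 pairs). The star form of miR-467a is miR-467a-1* on the array and miR-467a* in the deposited table, and miR-467a has 10 gene copies, so that pair may not come from 1 hairpin. For miR-467e the change was 0.04 (exact permutation p = 0.7), for miR-466a -0.01 (p = 0.8, exact permutation) and for miR-466d -0.07 (p = 0.5, exact permutation), with overlapping arrays. In the same 4 hairpins the NMDA arrays also lay above the bicuculline arrays. None of these tests could pass a threshold of 0.05, and except for miR-466f-3p all of these arms were under the detection limit. miR-466c-5p, a 5p arm with no 3p partner of that name on the array, was among the 7 members that were higher after NMDA in the deposited table.

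**Figure D4:**
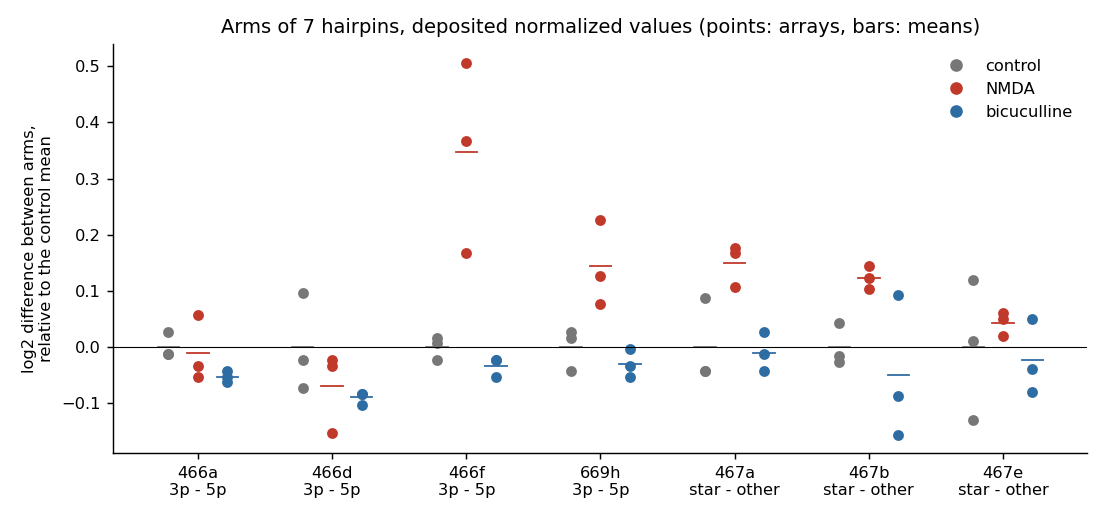
Log2 difference between the arms of 7 hairpins in the deposited table (3p minus 5p, or star minus the other arm), relative to the mean of the control arrays; points are arrays and short bars means of 3 arrays. The NMDA arrays of miR-466f, miR-669h, miR-467a and miR-467b lie above all control arrays of the same pair.

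The repeats of the printed sequences were set beside the changes. In the deposited table the log2 difference between NMDA and control was 0.84 for miR-467f, with a run of 12 alternating bases, and 0.59 for miR-466i, with a run of 11. For miR-467g and miR-466k, with runs of 9, it was 0.11 (SE 0.04) and 0.03 (SE 0.04), for miR-669n, with a run of 8, 0.17, and for miR-466j, with a run of 7, 0.03 (SE 0.04). miR-467g, miR-466k and miR-466j were not called (limma, adjusted p = 0.249, 0.816 and 0.834). The other 33 members, all those counted within Sfmbt2 among them, had no sequence in the table used and do not enter this comparison.

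The same motifs were searched in the array miRNAs outside the families that were matched to a sequence, and 8 held one. The pair with the longest runs is shown for comparison with miR-467f and miR-466i.

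miR-574-5p: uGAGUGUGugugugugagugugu

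miR-1187: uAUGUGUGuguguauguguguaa

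miR-574-5p, with a run of 13 alternating uracil and guanine bases, was higher after NMDA by 3.13 on the floored log2 scale (limma, SE 0.23, adjusted p = 8.49e-05), and miR-1187, with a run of 11, by 2.64 (limma, SE 0.18, adjusted p = 8.49e-05). Both were well above background on all NMDA arrays and on 1 of 3 control arrays, so they passed the detection filter through NMDA. miR-362-3p and miR-342-3p, with runs of 6 bases, also passed it and were not called (0.09 and -0.06, limma, adjusted p = 0.991 for each). The deposited table has a value for all 14 miRNAs with a motif, detected or not. There the log2 difference between NMDA and control was 1.25 for miR-574-5p, 1.14 for miR-1187, and 0.24 (SE 0.06) for miR-574-3p, which has a run of 7, was well above background on no NMDA or control array and was not called (limma, adjusted p = 0.0745). It lay between -0.08 and 0.03 for the other 5 outside the families, all with runs of 6. The 4 of the 14 with a run of 11 or more had differences of 0.59 to 1.25, and the 10 with shorter runs -0.08 to 0.24. The cut at 11 was not set in advance. All 4 were well above background on every NMDA array, whereas of the 10 only miR-342-3p, miR-362-3p and miR-669n were so on any NMDA array. Long runs and detection thus went together here, and the part of detection in the contrast was not tested. The 14 share arrays, run length was not separated from base composition, and 33 members have no sequence here. This is therefore a description of these miRNAs, with no test.

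**Figure D5:**
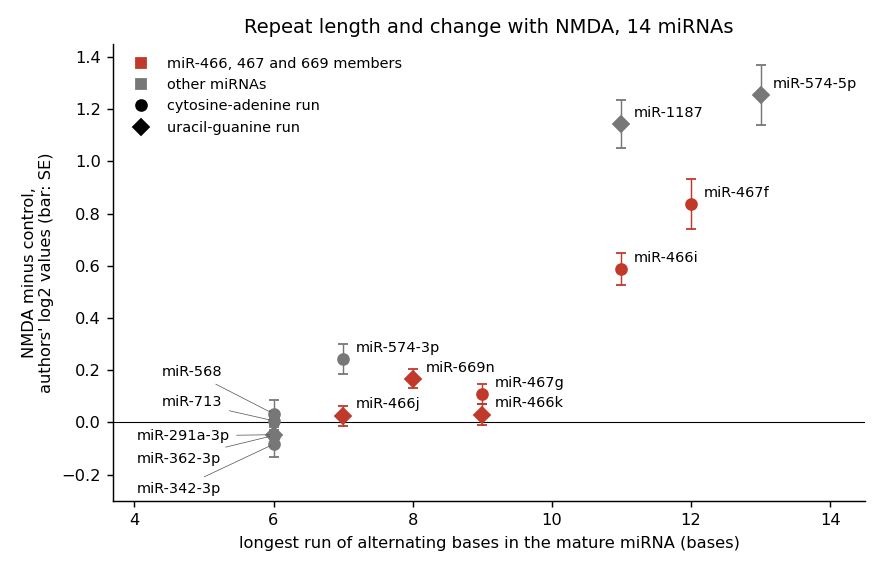
Difference between NMDA and control in the deposited log2 values against the longest run of alternating bases in the mature miRNA, for 6 members of the families and the 8 other matched array miRNAs with a motif, detected or not; circles are cytosine-adenine runs, diamonds uracil-guanine runs, and bars standard errors from limma, n = 3 arrays a group. miR-466i, miR-467f, miR-1187 and miR-574-5p, with runs of 11 to 13 bases, lie at 0.59 to 1.25, and the 10 with shorter runs at -0.08 to 0.24.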

How the data were processed

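The authors scanned 9 one-colour arrays and deposited Feature Extraction files (version 10.7.1.1 for slide 1 and 10.7.3.1 for slide 2). Per the file headers, the intensity of each spot was background-subtracted by that software before the authors deposited it, and other columns flag spots that are well above background, saturated or not uniform. A normalized table deposited by the authors holds log2 values for 650 miRNAs. How it was normalized and centred is not given in the sources used here. Over 37 bright miRNAs its slope on the log2 scanner signal was 0.765 to 0.870. All 650 rows were matched to the array, 645 by the name as written.

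From the scanner files, 3278 flagged spots were left out, and no spot was saturated. Spots were averaged per probe, scaled to their array's 75th percentile among the 265 probes that passed the background flag on every array, and a miRNA was given by its brightest probe. Values under 7.94% of that scale were raised to it before log2. Tests used limma 3.58.1 in R 4.3.3 (2 groups, no covariate, Benjamini-Hochberg over all miRNAs tested, threshold 0.05). Checked on simulated data with changes of 1 on the log2 scale for 20 miRNAs in NMDA against control, 100% were recovered among 181. Of the calls, 2.68% were false. The simulated errors were normal, with the same spread for every miRNA and no floor, so the check does not cover members at the floor.

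Groups came from the labels. Arrays with the same number in NMDA and control deviated together (correlations 0.364, 0.763 and 0.633 over 156 miRNAs). Each of these pairs also shared a slide, so in them a shared slide and a shared preparation cannot be told apart. The numbers were taken as pairs only in the replicate block, not in the main fit. For bicuculline the correlations with control were 0.587, 0.0847 and 0.719, and those with NMDA 0.622, -0.0256 and 0.722. In both sets the arrays numbered 2 lay on different slides and the others shared one. The parts of slide and preparation were not tested. Precision rests on 3 arrays a group. Named with values were the members well above background on at least 1 array, the opposite arms, and tested miRNAs outside the families that hold the repeat motifs. The untested miRNAs with a motif, miR-574-3p among them, miR-467g, miR-466j, miR-466k, miR-467a-1*, miR-467b*, miR-669a, miR-669h-3p, miR-669l, miR-297b-5p, miR-669i, miR-466h, miR-466a-5p and miR-466l were named after their values were seen. The members and lists were chosen with earlier results of these data known.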

Additional observations from a re-analysis of the deposited data

How the results depend on the processing

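With signals scaled to the median of the detected probes or to all probes, quantile normalization, normexp background correction on the median signal, a floor at 0.5 of that used, 1 fit over all arrays, the slide as a block, or the deposited values of the same miRNAs, 3 members were called in NMDA against control and 3 in NMDA against bicuculline. Scaling to all probes moved the median of all miRNAs tested to -0.43 and -0.47 on the log2 scale, and quantile normalization to -0.14 and -0.12, with the members above it in each. With the replicate block, which pairs arrays by their number, 3 were called in both, and no call of a member changed. The mean of all probes in place of the brightest gave 1 in both comparisons (miR-467f). The total that the scanner software gives per miRNA left 2 called in NMDA against control, without miR-467f. The methods' t-test called 2 in NMDA against bicuculline, without miR-466f-3p. Testing all 650 miRNAs on the floored signals, of which 435 were at the floor on all arrays, gave 0 in NMDA against control (3 with an unadjusted p under 0.05) and 1 in NMDA against bicuculline. Combined with that choice, the replicate block, the slide block and the methods' t-test each gave 0 in both, scaling to all probes gave 2 and 3, and a lower floor gave 3 and 3. These combinations, and the blocks, t-test and left-out arrays for the deposited table, were chosen after seeing the data. The deposited values of all 650 gave 7 and 5. The cause of these shifts was not tested.

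Leaving out each array in turn gave 3 to 4 members in both comparisons, the fourth being miR-669f without NMDA 1, when more members passed the filter. In the deposited table it gave 2 to 6 in both, the slide as a block gave 7 and 8, the replicate block 7 and 7, and the methods' t-test 0 and 0. For bicuculline against control no setting called a member, but many of the settings could not have done so. With the detection filter 0 members were tested. Without the filter, at the main floor, every control and bicuculline signal of the members was at the floor, so their differences were fixed at 0. The deposited table gave all 39 members a value in this comparison, and 0 were called there. The 3p minus 5p change of miR-466f, which on the floored scale restates that of miR-466f-3p, was 0.35 with the mean of all probes (exact permutation p = 0.4, with overlapping arrays), 0.35 in the deposited table, 2.79 with the total signal per miRNA, 1.35 to 1.74 when leaving out each array. Over the within-number differences it was 1.50 (exact sign-flip test, p = 0.25, the smallest it can give), and within slide 1 and slide 2 it was 1.35 and 1.80. Requiring detection on all 9 arrays left no member to test. Signals near the background limit the depth of this comparison: 32 members have no measured change, only a signal under the limit.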

Other observations

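The total signal per miRNA that the scanner software computes told a different order for miR-467f than its probes did. It was 0.1, 417 and 13.5 units in control 1 to 3, 150, 254 and 293.8 in NMDA 1 to 3, and 0.1, 17.5 and 0.1 in bicuculline 1 to 3, so that control 2 lay above all NMDA arrays, although the brightest probe of miR-467f read 6.09% of the array scale on control 2 and was not well above background there. For miR-466f-3p the same total was 0.1 on all control and bicuculline arrays and 354, 193 and 92.7 in NMDA 1 to 3, with NMDA 1 highest, whereas its brightest probe was lowest on NMDA 1. For miR-466i the total was 0.1 on all control and bicuculline arrays and 84.2, 133.1 and 144.2 after NMDA, in the order of the probe. A value of 0.1 is the lowest these totals take for the 3 members.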
